A study of Sus scrofa with 8 samples.

Results

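The genes described here make, fold and control the mucus of intestinal goblet cells, measured in the lining of pig neobladders, in native bladder and in peritoneum. A list of 10 symbols (MUC2, REG4, TFF2, TFF3, AGR2, FCGBP, CLCA1, SPDEF, ATOH1 and ZG16) was matched to the pig Ensembl gene IDs of the count files, and each of 8 symbols had 1 gene among the 31907 in the files. FCGBP and ZG16 were not analysed here, because the table of gene names pairs neither symbol with an ID. All 8 genes found were among the 16549 genes that passed the low-count filter and were tested. TFF2 and ATOH1 passed that filter only through the control neobladder: with those libraries left out, the same filter kept the other 6 genes.

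Goblet cells are secretory cells scattered through the intestinal epithelium. They fill the upper part of the cell with packed gel-forming mucin and release it onto the surface, where it swells into the mucus layer that keeps bacteria and gut contents away from the epithelium. Mucus made by bowel segments is a known nuisance in bladders reconstructed from intestine, since the segment goes on secreting it into urine. In mouse intestine the transcription factor ATOH1 commits crypt progenitors to the secretory lineages, Notch signalling holds ATOH1 down, and SPDEF acts after ATOH1 in the maturation of goblet cells.

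A neobladder here is a pouch of ileum that takes the place of the bladder, and the study asked whether autologous peritoneum can replace the mucosa of the bowel segment. The groups, of 2 libraries each, were mucosa of the experimental neobladder (MN-Exp), mucosa of the control neobladder (MN-Ctrl), normal peritoneum (NP) and mucosa of normal bladder (MNB). All came from Guizhou minipigs aged 8 months. The labels do not give the lining of the control neobladder, the time since surgery or whether the 2 libraries of a group are separate animals, so p-values measure the spread between these samples only, which may be technical.

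Library totals ran from 7.94 to 11.88 M counts. Levels are CPM (counts per M counts) on the trimmed-mean scale between libraries, on which 3 counts in a library were worth 0.224 to 0.562 CPM. The labelled tissues matched their markers in part. Summed over 7 urothelium markers, levels were 4010 and 8178 CPM in MN-Exp, 56.0 and 149 CPM in MN-Ctrl, 476 and 939 CPM in NP, and 9530 and 8583 CPM in MNB. The NP sums were mostly UPK1B (309 and 573 CPM) and KRT7 (159 and 360 CPM). UPK1A, UPK2, UPK3A, TP63 and PSCA were at most 6.83 CPM in NP. Summed over 9 enterocyte markers, they were 193 and 209 CPM in MN-Exp, 44769 and 164669 CPM in MN-Ctrl, 844 and 762 CPM in NP, and 169 and 230 CPM in MNB. FABP6 made up most of the MN-Ctrl sums (31351 and 157528 CPM), and APOA1 most of the NP sums (742 and 628 CPM). Of the 9, 4 were higher in MN-Ctrl replicate 2 than in replicate 1, and the median ratio of replicate 2 to replicate 1 was 0.652. Mesothelium markers, of which 4 had a gene in the files, summed to 40.6 and 62.1 CPM in NP and to between 0.0848 and 0.375 CPM in the other 6 libraries, where CALB2 was at 0 as it was in NP.

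All 8 genes were lower in MN-Exp than in MN-Ctrl, with every MN-Exp library below every MN-Ctrl library, and edgeR's quasi-likelihood test called each of them at a Benjamini-Hochberg adjusted p under 0.05 over all genes. Across all genes tested, 11.3% were called lower, 10.4% were called higher and 26.2% had both MN-Exp libraries below both MN-Ctrl libraries. The 8 log2 fold changes had a median of -8.25, or -7.64 with ATOH1 at its bound, against 0.11 over all genes tested. The count of 8 and these medians include TFF2 and ATOH1, which passed the low-count filter only through MN-Ctrl. Little but a lower call was open to these 2, and the other 6 passed without those libraries. Since the tissue was sequenced in bulk, fewer cells of a type and less RNA per cell cannot be told apart. Enterocyte markers moved with the same contrast (9 of 9 lower), as did enteroendocrine markers (6 of 8 lower and 2 not called). Urothelium markers did too (7 of 7 higher), and the part of these markers in the result was not tested. The filter without MN-Ctrl was not run on them. Outside MN-Ctrl, the enterocyte markers FABP2, APOA4, SI, SLC10A2 and CDX2 had at most 5 counts a library. So did the enteroendocrine markers CHGA, GCG, NTS, SST and NEUROD1. Little but a lower call was open to any of these genes, which make up much of both counts. EPCAM, an adhesion molecule of epithelia in general, had 524 and 431 CPM in MN-Exp and 746 and 394 CPM in MN-Ctrl, and was not called (log2 fold change -0.26 with SE 0.43, adjusted p = 0.707). Of the 4 general epithelial markers tested, 1 was called lower and 3 were not called. The called gene was KRT8, a keratin of simple epithelia and of urothelium, with 1434 and 1786 CPM in MN-Exp and 6595 and 5035 CPM in MN-Ctrl (-1.85, adjusted p = 0.0496). None of the 4 was called on library totals, in the fit of the 2 groups, in the test against a 1.5-fold change, with a replicate block or without either MN-Exp library, and 2 were called without MN-Ctrl replicate 1. CDH1, the cadherin of epithelial junctions, had 752.5 and 1051 CPM in MN-Exp and 673.6 and 93.68 CPM in MN-Ctrl (1.23, adjusted p = 0.276), and KRT18 overlapped between the groups (0.57, adjusted p = 0.384).

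**Figure D1:**
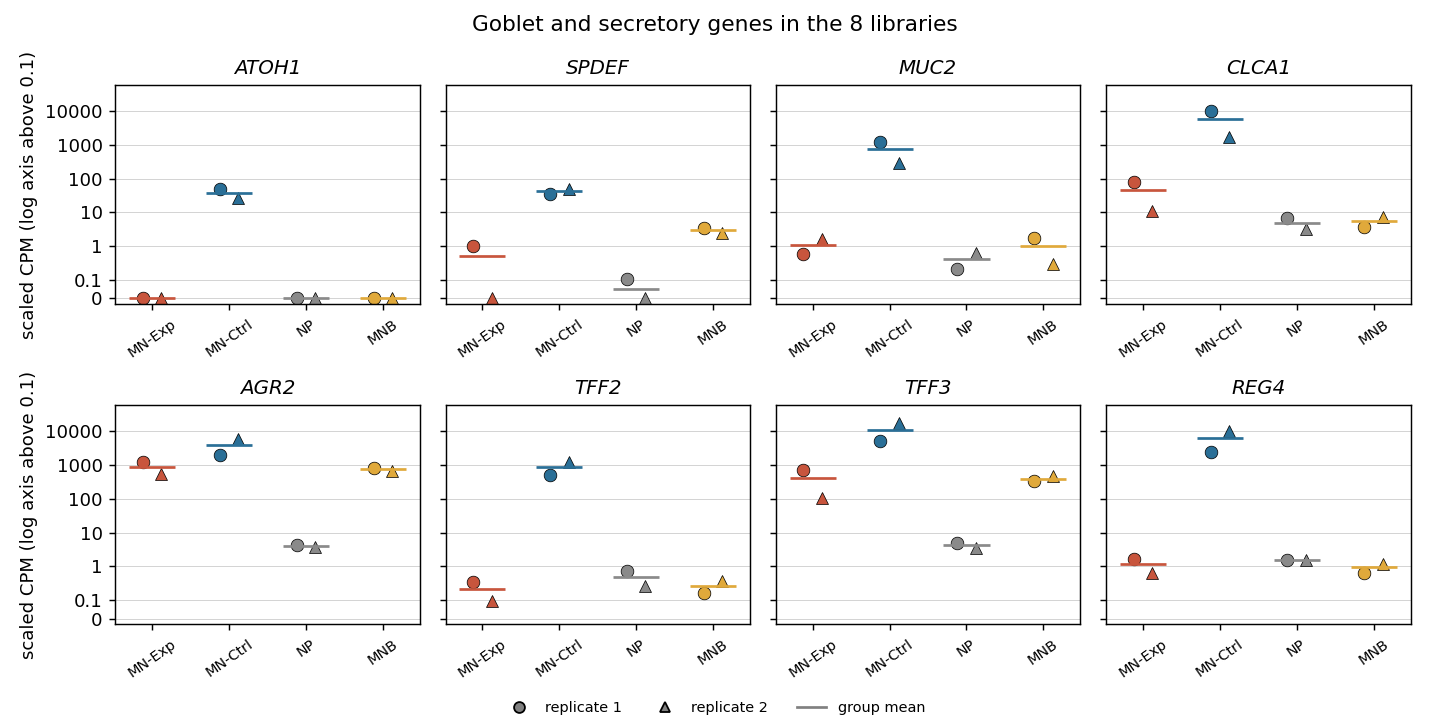
Level of each gene in every library, in CPM on the trimmed-mean scale (log axis above 0.1, with 0 at the foot); circles are replicate 1, triangles replicate 2 and bars group means. MN-Ctrl libraries lie above all others for each gene, while TFF3 and AGR2 also lie above 100 CPM in MN-Exp and MNB.

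ATOH1, the regulator of secretory fate (ENSSSCG00000009196, Sscrofa11.1 chromosome 8, 125768232 to 125770619), was counted only in the control neobladder. It had 0 counts in both MN-Exp libraries, 438 and 145 counts in MN-Ctrl, and 0 counts in the NP and MNB libraries. Its MN-Ctrl levels were 47.7 and 27.2 CPM, and a count of 0 allows up to 0.254 and 0.278 CPM in the 2 MN-Exp libraries. Against 3 counts over the group's 2 libraries, ATOH1 was at least 302-fold lower in MN-Exp than in MN-Ctrl (adjusted p = 0.00034). It was at least 345-fold higher in MN-Ctrl than in MNB (adjusted p = 0.00031) and at least 282-fold higher in MN-Ctrl than in NP (adjusted p = 0.00017). DESeq2 placed the same difference just outside the threshold, at adjusted p = 0.0615 for MN-Exp against MN-Ctrl and 0.0550 for MN-Ctrl against MNB.

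SPDEF, the transcription factor of goblet cell maturation (ENSSSCG00000036573, chromosome 7, 30515925 to 30538095), had counts in every group. It had 12 and 0 counts in MN-Exp, 313 and 266 in MN-Ctrl, 1 and 0 in NP, and 43 and 32 in MNB. In CPM these are 1.02 and 0 in MN-Exp, 34.1 and 49.8 in MN-Ctrl, 0.102 and 0 in NP, and 3.47 and 2.39 in MNB. Unlike ATOH1, SPDEF was therefore counted in both native bladder libraries, and the groups MN-Exp, MN-Ctrl and MNB did not overlap. It fell by 6.30 on the log2 scale in MN-Exp against MN-Ctrl (SE 0.92, adjusted p = 0.0011), and was 3.83 higher in MN-Ctrl than in MNB (SE 0.78, adjusted p = 0.0065). Without MN-Exp replicate 2 the difference between the neobladders was -5.33. Without MN-Exp replicate 1, which leaves a library at 0 counts, the fitted value was -11.75 and is no bound. The difference between MN-Ctrl and MNB was not called without MNB replicate 2 (adjusted p = 0.0630). SPDEF was also lower in both MN-Exp libraries than in both MNB libraries, as 23.7% of all genes tested were, with a log2 fold change of -2.46 (SE 0.87), but did not pass the test (adjusted p = 0.450). With no low-count filter the same difference was -2.49 with adjusted p = 0.0124.

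MUC2, the gel-forming mucin that builds the intestinal mucus layer (ENSSSCG00000040035, chromosome 2, 689363 to 719542), was near the floor everywhere except MN-Ctrl. Its counts were 7 and 17 in MN-Exp, 11420 and 1557 in MN-Ctrl, 2 and 7 in NP, and 22 and 4 in MNB. The levels were 0.593 and 1.58 CPM in MN-Exp, 1244 and 292 CPM in MN-Ctrl, 0.204 and 0.624 CPM in NP, and 1.78 and 0.299 CPM in MNB. Both MN-Ctrl libraries stood over 100 CPM above every other library, and the remaining 6 libraries overlapped one another. The log2 fold change was -9.46 in MN-Exp against MN-Ctrl (SE 1.11, adjusted p = 0.00030) and 9.53 in MN-Ctrl against MNB (SE 1.11, adjusted p = 0.00028). Both stayed called with any library left out, but their size moved. The difference between the neobladders was -8.05 without MN-Ctrl replicate 1, -10.16 without MN-Ctrl replicate 2 and -10.30 without MN-Exp replicate 2. MN-Ctrl against MNB was 8.12 and 10.24 without MN-Ctrl replicate 1 and 2, and 11.26 and 8.74 without MNB replicate 1 and 2.

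CLCA1, a secreted metalloprotease of mucus that cleaves MUC2 (ENSSSCG00000006933, chromosome 4, 129621259 to 129655385), kept a measurable level in the experimental neobladder. It had 950 and 122 counts in MN-Exp, 94998 and 8922 in MN-Ctrl, 65 and 37 in NP, and 46 and 100 in MNB. The levels were 80.5 and 11.3 CPM in MN-Exp, 10345 and 1672 CPM in MN-Ctrl, 6.62 and 3.30 CPM in NP, and 3.72 and 7.47 CPM in MNB. MN-Exp thus lay below MN-Ctrl and above NP and MNB, with no overlap on either side. Over all genes tested, 24.8% had both MN-Exp libraries above both MNB libraries and 35.4% had them above both NP libraries. CLCA1 fell by 7.03 on the log2 scale in MN-Exp against MN-Ctrl (SE 1.25, adjusted p = 0.0032). It was still called with any library left out, at -9.04 and -6.21 without MN-Exp replicate 1 and 2, and at -5.16 and -7.81 without MN-Ctrl replicate 1 and 2. The difference was 3.03 in MN-Exp against MNB (SE 1.05, adjusted p = 0.437) and 3.21 in MN-Exp against NP (SE 1.06, adjusted p = 0.0509), and neither was called; without MN-Exp replicate 1 the difference from NP was 1.23. DESeq2 did call both, with adjusted p = 0.0362 against MNB and 0.00196 against NP, as did the fit with no low-count filter. Against NP the fit with a replicate block (2.84, adjusted p = 0.0473) and the fit without MN-Exp replicate 2 (4.05, adjusted p = 0.0328) called it too.

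REG4, a secreted lectin of the regenerating family made by goblet and enteroendocrine cells (ENSSSCG00000040947, chromosome 4, 101337295 to 101354550), was at a few CPM or less outside MN-Ctrl. REG4 had 1.70 and 0.649 CPM in MN-Exp, 2424 and 10009 CPM in MN-Ctrl, 1.53 and 1.51 CPM in NP, and 0.646 and 1.20 CPM in MNB. Outside MN-Ctrl these levels rest on 7 to 20 counts a library, and they overlapped among the 3 groups. The log2 fold change was -12.35 in MN-Exp against MN-Ctrl (SE 1.12, adjusted p = 8.2e-05) and 12.70 in MN-Ctrl against MNB (SE 1.13, adjusted p = 7.1e-05). With libraries left out, the first ran from -13.17 (without MN-Exp replicate 1) to -10.98 (without MN-Ctrl replicate 2) and was -13.002 without MN-Ctrl replicate 1. The second ran from 11.33 (without MN-Ctrl replicate 2) to 13.36 (without MN-Ctrl replicate 1).

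The trefoil factors TFF2 and TFF3 are small disulfide-linked peptides that are secreted with mucin and aid the closing of epithelial wounds. In the annotation they are neighbours on chromosome 13, TFF3 at 205641038 to 205644333 (ENSSSCG00000022857) and TFF2 at 205669014 to 205672319 (ENSSSCG00000024320), 24681 bases apart. Their levels in the experimental neobladder differed widely. TFF2, which in the human gut is mostly a product of the stomach and duodenal glands, had 0.339 and 0.0927 CPM in MN-Exp, 499.7 and 1242 CPM in MN-Ctrl, 0.713 and 0.267 CPM in NP, and 0.162 and 0.374 CPM in MNB. Outside MN-Ctrl it had 1 to 7 counts a library. TFF3, the trefoil factor of goblet cells, had 736 and 107 CPM in MN-Exp, 5120.2 and 17332 CPM in MN-Ctrl, 4.89 and 3.39 CPM in NP, and 338 and 459 CPM in MNB.

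TFF2 was therefore at a handful of counts in MN-Exp, NP and MNB alike, whereas TFF3 was abundant in both neobladders and in native bladder and low in peritoneum. The log2 fold change in MN-Exp against MN-Ctrl was -11.87 for TFF2 (SE 0.90, adjusted p = 4.3e-05) and -4.74 for TFF3 (SE 0.998, adjusted p = 0.0079). For TFF2 it was -12.99 and -11.25 without MN-Exp replicate 1 and 2, and -11.07 without MN-Ctrl replicate 2. For TFF3 it was -6.69 without MN-Exp replicate 1 and -5.34 without MN-Ctrl replicate 1. The call on TFF3 was lost in the fit of those 2 groups alone (-4.81, adjusted p = 0.0540), without MN-Exp replicate 2 (-3.91, adjusted p = 0.0583) and without MN-Ctrl replicate 2 (-3.60, adjusted p = 0.109). TFF3 was higher in MN-Exp than in NP by 6.67 (SE 1.105, adjusted p = 0.0019; 4.72 and 7.50 without MN-Exp replicate 1 and 2), and higher in MN-Ctrl than in MNB by 4.82 (SE 1.002, adjusted p = 0.0075). The MN-Ctrl and MNB difference was not called without MN-Ctrl replicate 2, MNB replicate 1 or MNB replicate 2 (adjusted p = 0.106, 0.0836 and 0.0581), and was 5.42 without MN-Ctrl replicate 1 and 3.68 without MN-Ctrl replicate 2.

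AGR2, a disulfide isomerase of the endoplasmic reticulum that mouse goblet cells need to make MUC2 (ENSSSCG00000015363, chromosome 9, 86042070 to 86053893), had the smallest log2 fold change of the 8 between the neobladders. AGR2 had 1229 and 547 CPM in MN-Exp, 1975 and 6141 CPM in MN-Ctrl, 4.28 and 3.83 CPM in NP, and 836 and 681 CPM in MNB. The MN-Exp libraries lay on either side of the MNB libraries, below those of MN-Ctrl and far above those of NP. AGR2 fell by 2.19 on the log2 scale in MN-Exp against MN-Ctrl (SE 0.66, adjusted p = 0.0379). That call was lost on library totals alone (-1.14, adjusted p = 0.126), in the fit of the 2 groups (-2.27, adjusted p = 0.167), in the test against a 1.5-fold change (adjusted p = 0.0621) and with a replicate block (-2.20, adjusted p = 0.0593). It was also lost without MN-Exp replicate 1 (-2.86, adjusted p = 0.0830), MN-Exp replicate 2 (-1.70, adjusted p = 0.294) or MN-Ctrl replicate 2 (-1.15, adjusted p = 0.0679). AGR2 was higher in MN-Exp than in NP by 7.77 (SE 0.85, adjusted p = 0.00019), or 7.11 without MN-Exp replicate 1. It was 2.42 higher in MN-Ctrl than in MNB (SE 0.66, adjusted p = 0.0263), a call lost on library totals alone (1.30, adjusted p = 0.0839), in the fit of the 2 groups (adjusted p = 0.117) and without either MNB library (adjusted p = 0.157 and 0.179). It was 1.38 without MN-Ctrl replicate 2. Between the neobladders it was -2.76 without MN-Ctrl replicate 1, in the same direction.

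**Figure D2:**
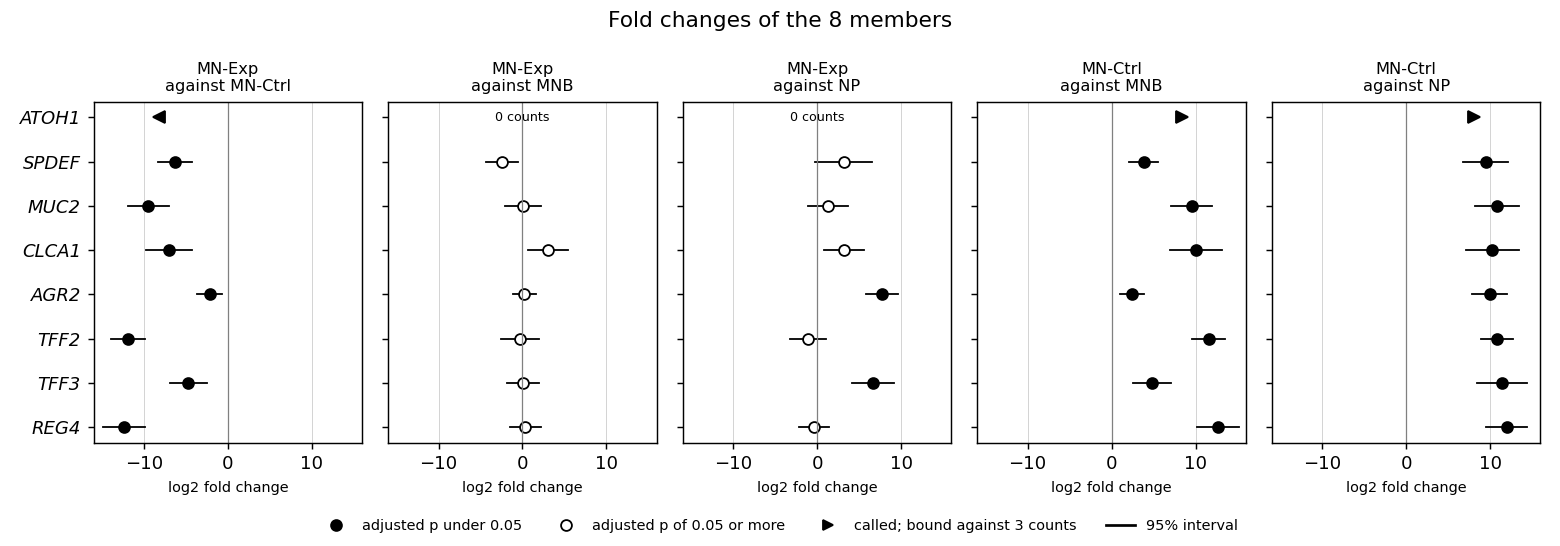
Log2 fold changes of the 8 genes in 5 comparisons, with 95% intervals from edgeR's quasi-likelihood fit; filled points passed an adjusted p of 0.05 and triangles mark the bound for ATOH1. In MN-Exp against MNB no point is filled, and in MN-Exp against NP the filled points are TFF3 and AGR2.

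Between the experimental neobladder and the native bladder none of the 8 genes was called by edgeR, in a comparison in which 0.0967% of all genes tested were called. CLCA1 and SPDEF had unadjusted p under 0.05 (0.0156 and 0.0175), DESeq2 called 1 of the 8 and the fit with no low-count filter called 2. ATOH1 had 0 counts in both groups, so no difference is given for it. For the 7 genes with counts the interval of the difference was wide. It ran from -1.81 to 1.97 on the log2 scale for TFF3 around 0.08, from -1.17 to 1.62 for AGR2 around 0.23, and from -2.05 to 2.18 for MUC2 around 0.07. For REG4 it ran from -1.53 to 2.22 around 0.35, and for TFF2 from -2.50 to 1.93 around -0.28. The 2 groups overlapped for these 5 genes, and a 2-fold difference either way lies inside each of these intervals. For CLCA1 the interval ran from 0.70 to 5.36, and for SPDEF from -4.40 to -0.53. Over all genes 1326 had an unadjusted p under 0.05 and 16 were called. This fit shares its estimate of spread with MN-Ctrl and NP. The log2 difference between replicates had an SD over genes of 1.25 in MN-Ctrl, 0.743 in MN-Exp and 0.663 in MNB. The fit of MN-Exp and MNB alone called more genes in all, as given below.

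Against peritoneum, TFF3 and AGR2 were called higher in MN-Exp, 2 of the 8, where 12.4% of all genes tested were called higher. None was called lower, where the share over all genes was 11.8%. The general epithelial markers moved with the same contrast, with 3 of the 4 tested called higher in MN-Exp. EPCAM had 524 and 431 CPM in MN-Exp and 2.24 and 2.41 CPM in NP. The part of these markers in the calls on TFF3 and AGR2 was not tested. MUC2 (log2 fold change 1.32, adjusted p = 0.408), REG4 (-0.36, adjusted p = 0.787) and TFF2 (-1.09, adjusted p = 0.436) overlapped between MN-Exp and NP and were not called. SPDEF, with 12 and 0 counts in MN-Exp and 1 and 0 in NP, overlapped too (adjusted p = 0.158). With no low-count filter, and likewise without MN-Exp replicate 2, 4 of the 8 were called, CLCA1 and SPDEF being the additional genes.

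The control neobladder was higher than both other tissues in all 8 genes. Against MNB all 8 were called higher, where 11.2% of all genes tested were called higher and 27.5% did not overlap in that direction, with a median log2 fold change of 9.80 (8.98 with ATOH1 at its bound) against -0.11 over all genes. Against NP all 8 were called higher as well, where 21.6% of all genes were called higher and 32.2% did not overlap in that direction, with a median of 10.79 (10.51 with ATOH1 at its bound) against -0.06 over all genes. Both counts and their medians include TFF2 and ATOH1, which passed the low-count filter only through MN-Ctrl. Little but a higher call was open to these 2, and the other 6 passed without those libraries. MUC2 was 10.79 higher in MN-Ctrl than in NP (SE 1.19), REG4 11.99 (SE 1.102), TFF2 10.79 (SE 0.85), TFF3 11.40 (SE 1.33), AGR2 9.96 (SE 0.93), CLCA1 10.24 (SE 1.43) and SPDEF 9.46. With single libraries left out these moved, all staying called. Without MN-Ctrl replicate 1, MUC2 was 9.38 and CLCA1 8.41 higher than in NP, while REG4 was 12.68, TFF3 12.04 and AGR2 10.56 higher. Without MN-Ctrl replicate 2, REG4 was 10.65, TFF2 10.02, TFF3 10.30 and AGR2 8.95 higher, and MUC2 11.50 and CLCA1 11.05. Without NP replicate 1 or 2, TFF2 was 11.61 or 10.26, and without NP replicate 1 CLCA1 was 10.84. MUC2 was 11.88 and SPDEF 8.57 without NP replicate 2. Without NP replicate 1, which leaves SPDEF at 0 counts in NP, its fitted value was 11.79 and is no bound. Without MNB replicate 2 the count against MNB was 5 of 8. These comparisons share the MN-Ctrl libraries with that of MN-Exp against MN-Ctrl and are not independent of it. The differences of MN-Ctrl for TFF3 and AGR2 were 4.82 and 2.42 relative to MNB, and 11.40 and 9.96 relative to NP, both genes having over 300 CPM in native bladder.

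Added together, the 8 genes took 0.235 and 0.0725% of all counts in MN-Exp, 1.82 and 1.65% in MN-Ctrl, 0.00227 and 0.00156% in NP, and 0.137 and 0.140% in MNB. Shares of counts also follow transcript length, so they describe libraries and not the order of genes. In MN-Exp the sum was mostly AGR2 and TFF3, with AGR2 at 60.0 and 82.0% of the 8-gene total and TFF3 at 35.9 and 15.98%. In MNB the same genes held nearly all of the sum, AGR2 70.6 and 59.1% and TFF3 28.6 and 39.9%. In MN-Ctrl the sum was spread over more genes and differently in each library. Replicate 1 held 47.7% CLCA1, 23.6% TFF3, 11.2% REG4, 9.11% AGR2 and 5.73% MUC2, and replicate 2 held 4.55% CLCA1, 47.1% TFF3, 27.2% REG4, 16.7% AGR2 and 0.794% MUC2.

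The 2 control neobladder libraries thus had similar shares of counts in the 8 genes but a different makeup. On the trimmed-mean scale, 4 genes of secreted peptides and their folding were higher in replicate 2. REG4 was 4.13-fold higher there (95% counting interval 4.06 to 4.19), TFF3 3.39-fold, AGR2 3.11-fold and TFF2 2.49-fold. Mucin and its protease went the other way, MUC2 being 4.26-fold and CLCA1 6.19-fold higher in replicate 1. The transcription factors differed less. SPDEF was 1.46-fold higher in replicate 2 (interval 1.24 to 1.73) and ATOH1 had a replicate 2 to replicate 1 ratio of 0.570 (interval 0.469 to 0.689). The intervals cover counting error only, and no test between conditions follows from 1 library against another.

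**Figure D3:**
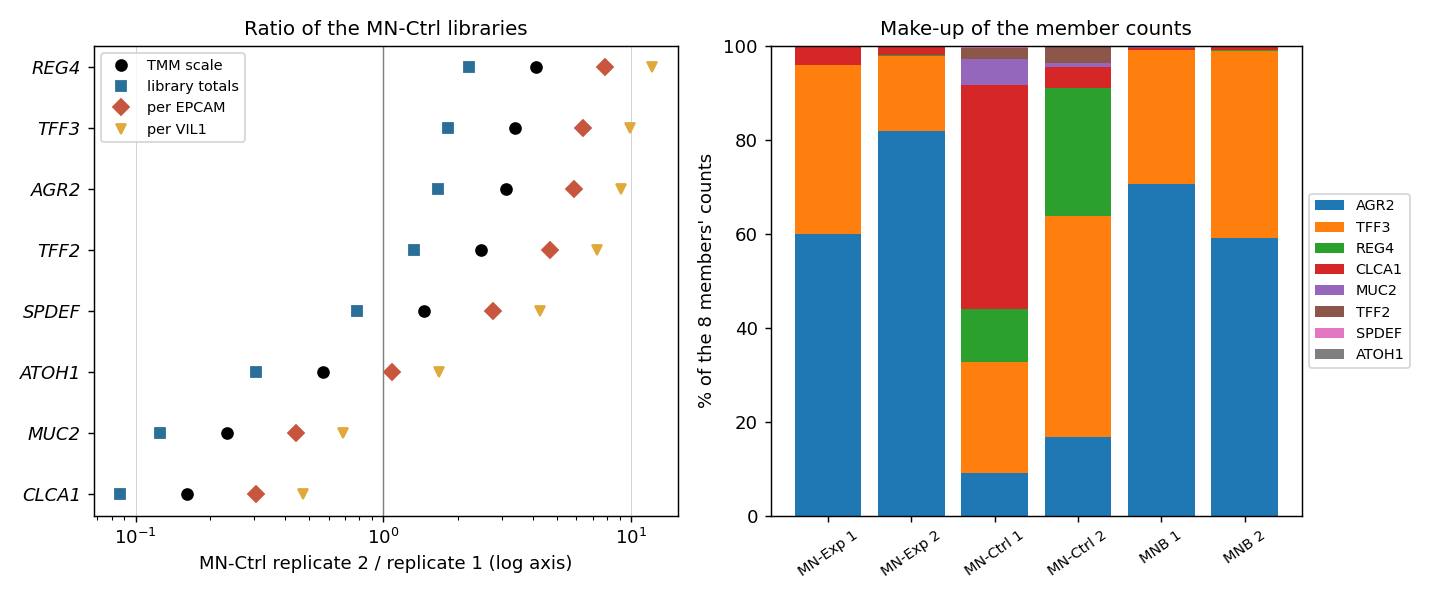
Left, ratio of MN-Ctrl replicate 2 to MN-Ctrl replicate 1 for each gene under 4 scales (trimmed mean or TMM, library totals, per EPCAM count, per VIL1 count; log axis); right, share of each gene in the counts of the 8 genes, in %, in the MN-Exp, MN-Ctrl and MNB libraries. REG4, TFF3, AGR2 and TFF2 lie above 1 and MUC2 and CLCA1 below 1 on every scale, while SPDEF and ATOH1 change side with the scale; AGR2 and TFF3 fill most of the MN-Exp and MNB bars.

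The scale between those libraries matters because their trimmed-mean factors were 0.839 and 0.449, against 1.088 to 1.239 in the other 6. On library totals the ratio was 2.21 for REG4, 1.81 for TFF3, 1.67 for AGR2 and 1.33 for TFF2, still above 1. It was 0.126 for MUC2 and 0.0866 for CLCA1, still below 1. SPDEF turned to 0.783 on library totals. Per count of EPCAM, a scale added after the data had been seen for the levels of all libraries, ATOH1 was nearly even, at 0.0639 and 0.0689 counts per EPCAM count in MN-Ctrl, a ratio of 1.08. Per count of VIL1, the villin of the enterocyte brush border, the ratio for ATOH1 was 1.67. EPCAM and VIL1 themselves had ratios of 0.528 and 0.341.

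Genes with longer spans tended to be lower in MN-Ctrl replicate 2. Across 11655 genes the rank correlation between the annotated gene span and the log2 difference of replicate 2 from replicate 1 was -0.319 in MN-Ctrl, -0.118 in MN-Exp, 0.0108 in NP and -0.0827 in MNB, a description across genes, which share their libraries and are not independent replicates. The log2 difference itself had an SD over genes of 0.743 in MN-Exp, 1.25 in MN-Ctrl, 0.944 in NP and 0.663 in MNB. Among the 8 genes, MUC2 and CLCA1 have the longest spans, 30.2 and 34.1 kb, and TFF2 and TFF3 span 3.31 and 3.30 kb. SPDEF, AGR2 and REG4 span 22.2, 11.8 and 17.3 kb, and ATOH1 spans 2.39 kb while being lower in replicate 2. The part of gene span in the differences between these libraries was not tested.

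The experimental neobladder libraries also differed from each other. In MN-Exp replicate 1, TFF3 was 6.90-fold, CLCA1 7.12-fold and AGR2 2.25-fold higher than in replicate 2. VIL1 was 6.97-fold higher in replicate 1 as well, with 15.5 and 2.23 CPM, and EPCAM was 1.21-fold higher. All 7 urothelium markers were higher in replicate 2, by a median of 3.42-fold, and their part in the spread of TFF3, CLCA1 and AGR2 was not tested. Per EPCAM count, AGR2 stood at 2.35 and 1.27 in MN-Exp, 2.65 and 15.6 in MN-Ctrl, and 2.40 and 2.06 in MNB. TFF3 per EPCAM count was 1.41 and 0.247 in MN-Exp, 6.86 and 44.0 in MN-Ctrl, and 0.971 and 1.39 in MNB. On this scale too, both genes overlapped between MN-Exp and MNB. In NP, where EPCAM had only 22 and 27 counts, AGR2 stood at 1.91 and 1.59 and TFF3 at 2.18 and 1.41. Per EPCAM count, then, neither gene was higher in MN-Exp than in NP, unlike on the trimmed-mean scale.

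The ratio of TFF3 to AGR2 counts was highest in the 2 MN-Ctrl libraries. It was 0.599 and 0.195 in MN-Exp, 2.59 and 2.82 in MN-Ctrl, 1.14 and 0.884 in NP, and 0.404 and 0.674 in MNB. The values in MN-Exp and MNB overlapped. Other pairs were less steady within MN-Ctrl: CLCA1 to MUC2 stood at 8.32 and 5.73, and REG4 to MUC2 at 1.95 and 34.3. These pairs were chosen after the values had been seen and were not tested.

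The genes whose profile over the 8 libraries was most like the median profile of the 8 genes were CYP4F3, HHLA2, CDHR5, SLC13A1 and ISX. Likeness was the root mean square difference of centred log2 CPM over the 8 libraries, among 9857 genes with a symbol and a mean of 5 CPM or more. CYP4F3, a fatty acid hydroxylase, differed by 0.413, and had 0.254 and 0.464 CPM in MN-Exp, 243 and 118 CPM in MN-Ctrl, 0.204 and 0 CPM in NP, and 0.323 and 0.299 CPM in MNB. HHLA2, a member of the B7 family, differed by 0.499, and CDHR5, a cadherin of the brush border, by 0.557. The sulfate transporter SLC13A1 differed by 0.566 and the intestinal homeobox factor ISX by 0.571. All 5 were at least 47 CPM in each MN-Ctrl library and under 1 CPM in the other libraries. Of the 8 genes themselves, ATOH1 lay closest to the median profile at 0.622 and MUC2 next at 0.872. AGR2 lay farthest at 3.12, after TFF3 at 2.38.

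Other goblet cell genes did not all follow the 8. Of 27 further symbols, 20 had a gene in the files and 16 were tested; 6 were lower and 3 higher in MN-Exp than in MN-Ctrl, 7 were not called (against 11.3% called lower and 10.4% called higher over all genes tested), and the median log2 fold change was -0.84. RETNLB and GUCA2B passed the low-count filter only through MN-Ctrl. The largest differences were in secreted or surface products of the mucosa. LYPD8, an anchored protein that in mouse colon keeps bacteria off the epithelium, had 1.36 and 1.02 CPM in MN-Exp and 4637 and 7385 CPM in MN-Ctrl (log2 fold change -12.29, adjusted p = 2.4e-05). RETNLB, a resistin-like protein secreted by goblet cells, had 0.339 and 0.0927 CPM in MN-Exp and 282 and 1419 CPM in MN-Ctrl (-11.84, adjusted p = 8.2e-05). SPINK4, a protease inhibitor of goblet cells, had 5.34 and 3.43 CPM in MN-Exp and 3219 and 22973 CPM in MN-Ctrl (-11.54, adjusted p = 0.00017). Each of these 3 was at most 5.34 CPM in every MN-Exp, NP and MNB library, where RETNLB had so few counts that it could be tested only for its MN-Ctrl level.

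The 3 higher genes of that list, named after their values had been seen, were FOXA1, WFDC2 and SYTL2. FOXA1, a forkhead factor that urothelium also expresses, had 275 and 364 CPM in MN-Exp, 41.9 and 5.62 CPM in MN-Ctrl, 0.509 and 0.178 CPM in NP, and 206 and 232 CPM in MNB. The log2 fold changes in MN-Exp against MN-Ctrl were 3.73 for FOXA1, 3.22 for WFDC2 and 2.11 for SYTL2. WFDC2 had 172 and 78.2 CPM in MN-Exp and 139 and 202 CPM in MNB. SYTL2 had 155 and 188 CPM in MN-Exp and 199 and 159 CPM in MNB, so both overlapped between these groups. XBP1, the transcription factor that expands the secretory apparatus, had 363 and 448 CPM in MN-Exp, 598 and 1031 CPM in MN-Ctrl, 804 and 678 CPM in NP, and 397 and 478 CPM in MNB, and was not called (adjusted p = 0.142). BCAS1, which is expressed in goblet cells, had 259 and 248 CPM in MN-Exp and 136 and 40.3 CPM in MN-Ctrl, and was not called either (adjusted p = 0.0621). In MNB, BCAS1 had 274 and 222 CPM. Without MN-Exp replicate 2, 5 of the 16 were called in place of 9.

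The genes of the gastric type of mucus that could be measured were at low levels. MUC5AC, MUC5B and MUC19 were not matched to a gene, so their levels are not known here. Of 10 symbols of other secreted mucins and gastric mucous genes, 7 had a gene in the files and GKN2 alone was tested, having passed the low-count filter only through MN-Ctrl. Their summed level was 0.339 and 0 CPM in MN-Exp, 3.38 and 10.5 CPM in MN-Ctrl, 0.204 and 0.178 CPM in NP, and 0 and 0.0747 CPM in MNB. TFF1, the trefoil factor of gastric surface cells, was at 0 in MN-Exp, NP and MNB and had 1.09 and 5.43 CPM in MN-Ctrl. TFF2 therefore stood at 499.7 and 1242 CPM in MN-Ctrl beside summed levels of 3.38 and 10.5 CPM for these 7 genes. GKN2, a gastric mucous peptide at 0 in both MN-Exp libraries and at 1.63 and 5.06 CPM in MN-Ctrl, was called lower in MN-Exp (adjusted p = 0.0229), but not by DESeq2, nor without MN-Exp replicate 1, MN-Exp replicate 2 or MN-Ctrl replicate 2.

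Enzymes that build the sugar chains of mucins went both ways. Of 25 symbols, 22 had a gene and 21 were tested; 6 were lower and 4 higher in MN-Exp than in MN-Ctrl, 11 were not called (against 11.3% called lower and 10.4% called higher over all genes tested), and the median was -0.30. GALNT8 passed the low-count filter only through MN-Ctrl. ST6GALNAC1, the sialyltransferase of goblet cell mucin, had 1.44 and 1.02 CPM in MN-Exp and 203 and 96.7 CPM in MN-Ctrl (log2 fold change -6.91, adjusted p = 0.00093). GALNT5, one of the enzymes that start the chains, had 1.61 and 0.371 CPM in MN-Exp and 14.4 and 5.996 CPM in MN-Ctrl (-3.35, adjusted p = 0.0092). B3GNT3, which extends the chain core, was on the opposite side, with 276 and 252 CPM in MN-Exp, 23.5 and 16.1 CPM in MN-Ctrl, 52.2 and 56.4 CPM in NP, and 190 and 199 CPM in MNB (3.73, adjusted p = 0.00017). FUT2, the secretor fucosyltransferase, had 203 and 157 CPM in MN-Exp and 183 and 95.4 CPM in MN-Ctrl and was not called (adjusted p = 0.565). GCNT3, a branching enzyme of mucin chains, had 154 and 33.9 CPM in MN-Exp, 239 and 155 CPM in MN-Ctrl, 6.42 and 10.96 CPM in NP, and 11.6 and 11.4 CPM in MNB, and was not called between the neobladders (adjusted p = 0.229). Like CLCA1, GCNT3 lay above MNB in both MN-Exp libraries without passing the test (log2 fold change 3.03, adjusted p = 0.164). Without MN-Exp replicate 2, 5 of the 21 were called.

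Of 22 tested genes for protein folding in the secretory pathway, 7 were lower in MN-Exp than in MN-Ctrl, none higher (against 11.3% called lower and 10.4% called higher over all genes tested), and the median was -0.90. SEC61B, a subunit of the translocation channel, had 110 and 135 CPM in MN-Exp and 215 and 1059 CPM in MN-Ctrl (log2 fold change -2.38, adjusted p = 0.0257). SSR4, a subunit of the translocon, had 206 and 239 CPM in MN-Exp and 334 and 1883 CPM in MN-Ctrl (-2.32, adjusted p = 0.0372), and the chaperone CALR had 291 and 350 CPM in MN-Exp and 1281 and 1497 CPM in MN-Ctrl (-2.12, adjusted p = 0.0074). KDELR2 and SEC61A1, the most abundant uncalled genes of the list, had log2 fold changes of -0.33 and -0.09 (adjusted p = 0.616 and 0.908). These 7 calls depended on the setting: 0 of the 22 were called on library totals alone, in the fit of the 2 groups, or without MN-Exp replicate 1 or 2, while 11 and 12 were called without MN-Ctrl replicate 1 or 2 and 12 by DESeq2.

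Several genes of the Notch pathway, unlike ATOH1, were higher in the experimental neobladder. Of 16 tested Notch pathway and secretory fate genes, 6 were higher and 1 lower in MN-Exp than in MN-Ctrl, 9 were not called (against 11.3% called lower and 10.4% called higher over all genes tested), and the median was 0.87. ASCL2 and GFI1 passed the low-count filter only through MN-Ctrl. The receptor NOTCH3 had 19.1 and 30.3 CPM in MN-Exp, 2.07 and 1.12 CPM in MN-Ctrl, 62.2 and 56.3 CPM in NP, and 38.0 and 31.8 CPM in MNB (log2 fold change 3.89, adjusted p = 0.00032). Its ligand JAG1 had 37.3 and 50.1 CPM in MN-Exp, 13.5 and 2.06 CPM in MN-Ctrl, 48.9 and 62.3 CPM in NP, and 37.5 and 38.5 CPM in MNB (2.44, adjusted p = 0.0222). For both genes the 2 MN-Ctrl libraries were the lowest of the 8. The lower gene was SOX9, a factor of crypt progenitors, with 0.339 and 1.58 CPM in MN-Exp and 37.9 and 7.49 CPM in MN-Ctrl (-4.58, adjusted p = 0.0133). RBPJ, the DNA-binding partner of Notch, and MFNG, a modifier of Notch, were not called (0.11 and -0.82). The count of 7 was 3 without MN-Exp replicate 1, 2 without MN-Exp replicate 2, 11 without MN-Ctrl replicate 1 and 3 in the fit of the 2 groups.

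**Figure D4:**
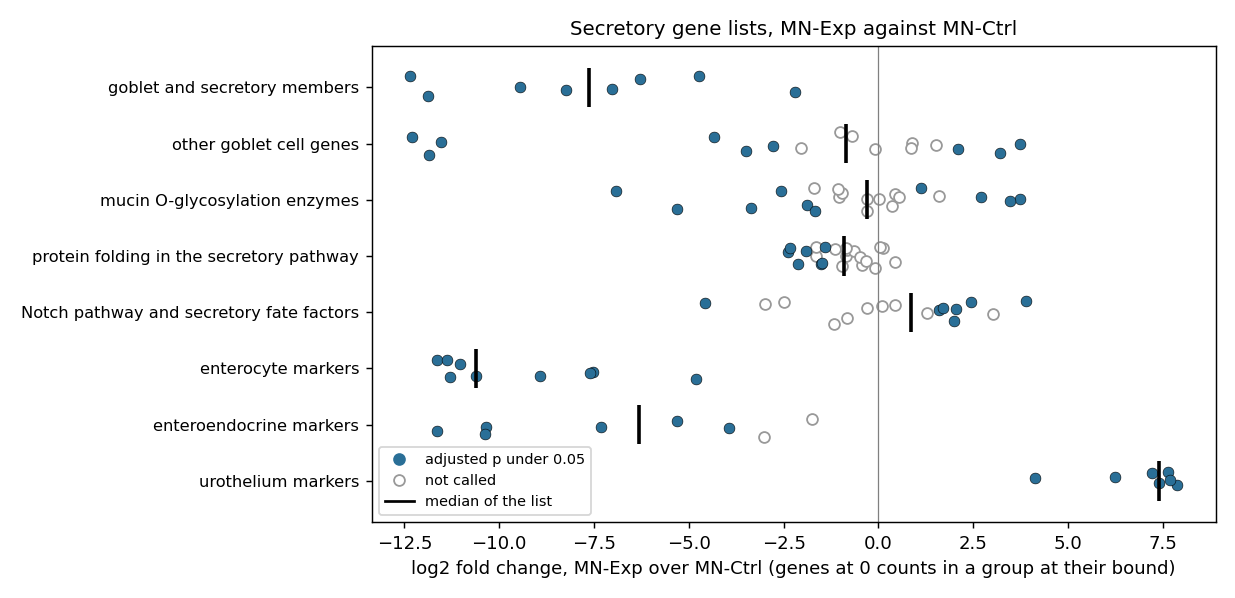
Log2 fold changes in MN-Exp against MN-Ctrl for every tested gene of the 8, of 4 related lists and of 3 marker lists, each point 1 gene, filled where adjusted p was under 0.05, with a bar at each list's median and genes at 0 counts in a group at their bound. The 8 lie between -12.35 and -2.19, as do most enterocyte and enteroendocrine markers, whereas the lists of other goblet, glycosylation, folding and Notch genes reach to both sides of 0, with all called folding genes below it.

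Between MN-Exp and MNB no gene of these 5 related lists was called by edgeR, whose median log2 fold changes lay between -0.27 for the Notch list and 0.06 for the glycosylation list. With no low-count filter 1 other goblet gene, 2 glycosylation genes, 1 folding gene and 1 Notch gene were called, and DESeq2 called 2 glycosylation genes. Against MNB, MN-Ctrl was higher in 7 and lower in 3 of the 16 other goblet genes, and higher in 6 and lower in 5 of the 21 glycosylation genes, where 11.2% of all genes tested were called higher and 1829 of 16549 lower. The counts were 3 higher of the 22 folding genes, a share near that over all genes, and 7 lower of the 16 Notch genes. Without MNB replicate 1 these calls numbered 6 for other goblet genes, 4 for glycosylation, 0 for folding and 3 for Notch genes.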

How the data were processed

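Raw counts per Ensembl gene were deposited by the authors, one file per library. RNA was extracted with an RNeasy Plus kit, made into complementary DNA with Smart-seq2 and into libraries with a TruSeq kit, per the labels' protocols. Trim Galore, HISAT2, HTSeq 0.11.1 and Sscrofa11.1 are named in the submitters' processing notes. Settings, strand handling and the annotation release are not given in the sources used here, so antisense reads cannot be told apart.

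Symbols came from a table of gene IDs (15029 of 31907 genes matched) and positions from RefSeq on Sscrofa11.1. In edgeR 4.0.16 (R 4.3.3, limma 3.58.1), filterByExpr kept 16549 genes, counts were scaled between libraries by TMM (trimmed mean of M-values), and all 8 libraries entered 1 robust quasi-likelihood fit by group (4 residual degrees of freedom, biological coefficient of variation 0.382). Log2 fold changes have the first-named group on top, and p-values are Benjamini-Hochberg adjusted over all genes. Against a group at 0, a bound uses 3 counts over its 2 libraries and covers counting error only. The fit was tested on simulated data.

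The other settings tried were DESeq2 1.42.0, DESeq2 size factors in edgeR, library totals, no filter, the compared groups alone, a 1.5-fold test, a replicate block and each library left out. List counts in these settings, levels per EPCAM count, gene pairs and the filter without the control neobladder were settings chosen once the data had been seen. All 8 genes are described; of each related list, the 3 called genes (mean of 5 CPM or more) with the largest log2 fold change in MN-Exp against MN-Ctrl and the 2 most abundant uncalled genes are named, and others are said to be chosen after their values were seen. The genes and lists were chosen with earlier results of these data known.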

Additional observations from a re-analysis of the deposited data

How the results depend on the processing

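Of the log2 fold changes of the 8 genes over all settings, 77 of MN-Exp against MN-Ctrl kept their direction and side of the threshold and 11 lost the call. In MN-Ctrl against MNB these were 79 and 9, and in MN-Ctrl against NP all 88 kept both. Leaving out each library in turn gave 6 to 8 of the 8 genes called for MN-Exp against MN-Ctrl, 0 for MN-Exp against MNB, 2 to 4 for MN-Exp against NP, 5 to 8 for MN-Ctrl against MNB and 8 for MN-Ctrl against NP. Over all genes the same settings gave 1396 to 6358, 3 to 7, 1762 to 2394, 1442 to 6485 and 4671 to 8279 calls. For MN-Exp against MNB, DESeq2 called 1 of the 8 and 249 genes in all, no filter 2 and 352, the 2 groups alone 453, library totals 5 and the 1.5-fold test 10. For MN-Exp against NP no filter called 4 of the 8. The fit of the 2 groups alone called 2340 genes in MN-Exp against MN-Ctrl, 6215 in MN-Exp against NP and 2294 in MN-Ctrl against MNB. On library totals alone the log2 fold changes of all genes had a median of 0.89 in MN-Exp against MN-Ctrl, against 0.11, and 77.1% of calls were higher, against 48.0%; in MN-Ctrl against MNB it was -0.97 with 18.7% higher, against 50.4%, and in MN-Ctrl against NP -0.96 with 24.9% higher, against 51.2%.

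Directions that turned were all of uncalled values. In MN-Exp against MNB, leaving out each library in turn moved MUC2 between -0.77 and 1.81, REG4 between -0.49 and 0.87, TFF2 between -1.42 and 0.42, TFF3 between -1.89 and 0.89, and AGR2 between -0.46 and 0.70. MUC2 was -0.0148 on library totals and TFF3 -0.0119 with the replicate block. In MN-Exp against NP, REG4 moved between -1.18 and 0.18 and SPDEF between -2.29 and 5.51. Of the ratios between MN-Ctrl libraries, SPDEF turned to 0.783 on library totals and ATOH1 to 1.08 per EPCAM and 1.67 per VIL1; the cause was not tested.

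The labels do not state whether same-numbered libraries are paired. Across genes, deviations of same-numbered libraries correlated between groups at -0.080 to 0.091, which does not show whether they share an animal or a batch. With the replicate block 3140 genes were called in MN-Exp against MN-Ctrl, 7 of the 8 among them, 14 in MN-Exp against MNB, 3657 in MN-Exp against NP, 3268 in MN-Ctrl against MNB and 6400 in MN-Ctrl against NP. With 2 libraries a group, 1 to 22 counts outside MN-Ctrl limit what can be said of MUC2, REG4 and TFF2.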
